A study of Mus musculus with 12 samples.

Results

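The ERK feedback genes are 10 genes that mouse cells switch on when the MAP kinase ERK is active, most of whose products then limit the same pathway. They were chosen by name and not by a threshold on their values, with earlier results of these data known. They are the Sprouty genes *Spry1*, *Spry2* and *Spry4*, the Sprouty-related genes *Spred1* and *Spred2*, the MAP kinase phosphatase genes *Dusp4* and *Dusp6*, the ETS factor genes *Etv4* and *Etv5*, and *Egr1*. All 10 were among the 24421 genes counted, and 9 of them, all but *Egr1*, were among the 11378 genes tested. RNA-seq had been performed on mouse embryonic stem (mES) cells of strain B6 (C57BL/6J in the study's methods) that carry a Brg1 dTag knock in, in which an *FKBP12-F36V* degron was placed in the *Brg1* locus (gene symbol *Smarca4*) so that the small molecule dTAG13 directs degradation of BRG1, the main catalytic subunit of the mSWI/SNF chromatin remodeler in these cells. Cells in 2i and LIF received 0, 0.3, 1, 3, 10 or 100 nM dTAG13 for 24 h, with 2 libraries per dose and 12 in all. All 6 groups, the 0 nM control included, carry the knock-in, which came from picked single-cell colonies, so a line without the degron treated with dTAG13 was not part of this comparison. The study describes the libraries of a dose as coming from independent experiments, and the labels name them only as replicates. The p values measure the spread between these libraries.

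Fibroblast growth factors bind receptor tyrosine kinases, and adaptors then hand the signal to RAS, RAF, MEK and ERK. In mES cells FGF4 made by the cells themselves is the best known input, and ERK activity drives them out of naive pluripotency. SPRY and SPRED proteins act at the membrane on RAS and RAF, DUSP4 and DUSP6 remove phosphate from ERK itself, ETV4 and ETV5 are transcription factors induced through FGF receptors, and EGR1 is an immediate early transcription factor. The 2i medium holds an inhibitor of MEK, and the study's medium also held fetal bovine serum. In all 12 libraries, at every dose, the genes were thus read in cells under that inhibitor. ERK activity was not measured in these data.

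The libraries held 4663484 to 6375582 counts (median 5956670), and each member except *Dusp4* and *Egr1* was read by at least 60 read pairs in every library. The ribosomal gene *Rn45s* took 10.5% to 19.4% of a library and differed most within the pairs at 3 nM (10.5% and 19.0%) and 10 nM (17.7% and 12.1%). Over all genes with at least 10 counts in a pair, *Rn45s* included, the counts of these pairs stood further apart. The chi-square was 15.6 and 9.04 for each degree of freedom beside 1.96 to 5.74 at the other doses. The part of *Rn45s* in these values was not separated. The *Spry4* calls at 3 and 10 nM held with each library left out (log2 changes of 0.37 to 0.41 and of 0.50 to 0.55). The labels end in S numbers that form one series without repeats over the libraries at 0, 1, 10 and 100 nM, and those at 0.3 and 3 nM repeat some of these numbers. What the numbers stand for is not given in the sources used here. These sets are called runs of label numbers below, and 3 against 0.3 nM was also compared. *Smarca4* mRNA, which the degron does not target, was 64.2 and 63.5 RPKM (read pairs per kilobase of exon scaled to library size, computed here from the counts) at 0 nM and 71.3 and 71.2 RPKM at 100 nM, and it therefore does not check the dose labels. Of 9 naive mES cell markers all were detected, summing to 1332 to 1373 RPKM at 0 nM and 1348 to 1379 RPKM at 100 nM. These sums do not show the opposite changes of single markers, which are given further below.

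At 0 nM the levels of the members spanned more than 2 orders of magnitude per kilobase. *Etv5* stood at 64.4 ± 2.31 RPKM and *Etv4* at 59.2 ± 4.93 RPKM (mean ± SD, n = 2 throughout), with the higher *Etv4* library at 62.7 RPKM and the lower *Etv5* library at 62.8 RPKM. *Spry2* at 36.0 ± 1.74 RPKM and *Spry4* at 35.2 ± 0.722 RPKM overlapped. *Dusp6* followed at 19.0 ± 0.173 RPKM, *Spred2* at 14.3 ± 0.667 RPKM, *Spred1* at 12.4 ± 1.11 RPKM, *Spry1* at 6.76 ± 0.501 RPKM, *Dusp4* at 0.996 ± 0.108 RPKM and *Egr1* at 0.380 ± 0.0625 RPKM. In that order the libraries of neighbours from *Dusp6* to *Egr1* did not overlap. Exons of the 10 members share no bases with those of another gene in the annotation behind the counts, so counting without regard to strand did not mix them with an antisense gene of that annotation.

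**Figure D1:**
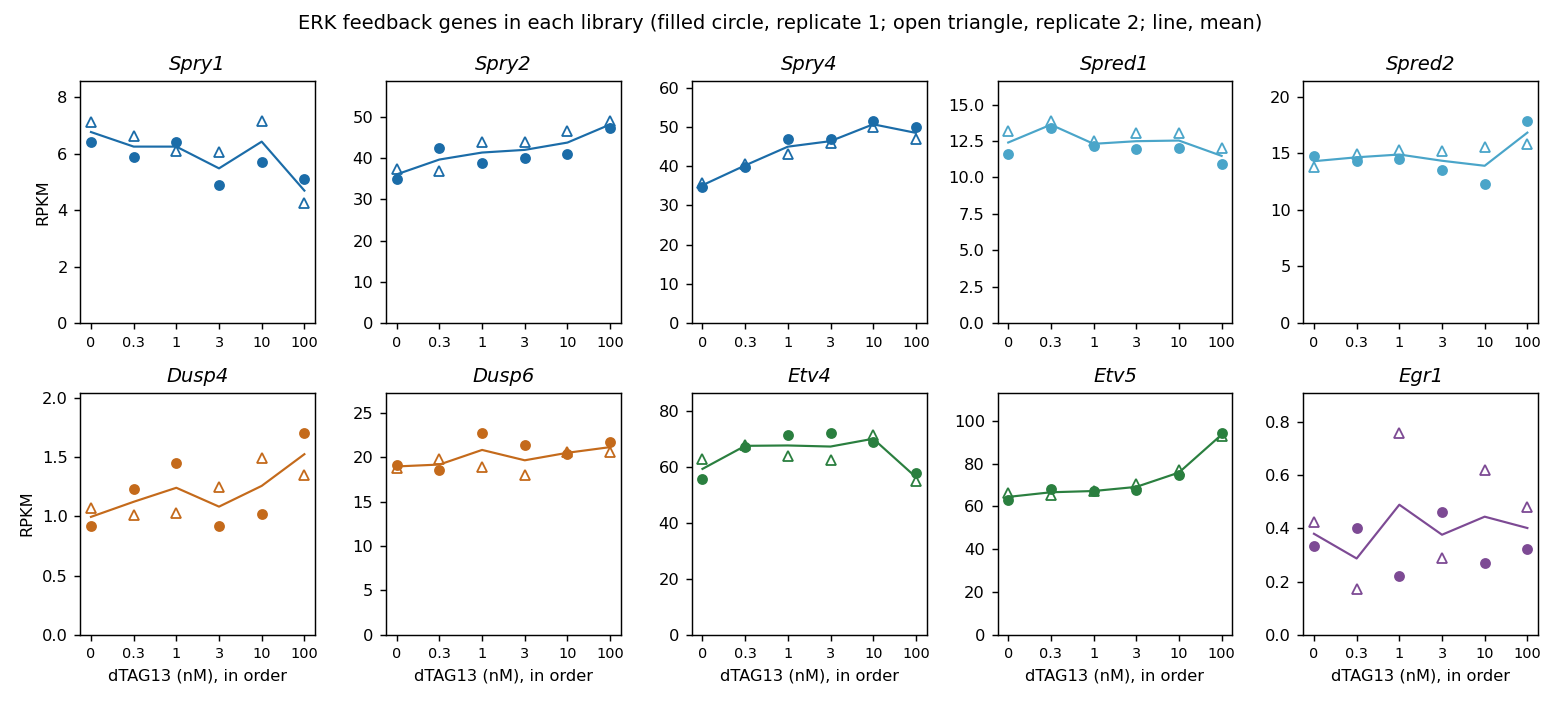
RPKM of the 10 ERK feedback genes (y axis, from 0) in each of the 12 libraries against the dTAG13 dose in nM, placed in order and evenly spaced (x axis); filled circles are replicate 1, open triangles replicate 2 and the line joins the means. Both *Spry4* libraries are above both controls at every dose, *Etv5* stays near 64.4 to 69.1 RPKM up to 3 nM and reaches 93.5 RPKM at 100 nM, and *Etv4* has a mean of 70.0 RPKM at 10 nM that drops to 56.3 RPKM at 100 nM.

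For a view of the DNA in front of the members that moved, the 250 bases before the annotated start were taken from RefSeq (GRCm38.p6, the assembly behind mm10). Entries were used for 6 members, in 7 windows. No window was used for *Spry4*, *Etv4*, *Dusp4* or *Egr1*, so the motif search does not cover them. The sequences below are those of *Etv5*, which has 2 annotated starts and the largest rise among the members called at 100 nM, *Spry2*, which rose with it, and *Spry1*, the Sprouty gene that went the other way. Each is written 5′ to 3′ on the strand of the gene, and capitals mark a match to a motif searched.
Etv5, distal start, chr16:22439571-22439820, minus strand: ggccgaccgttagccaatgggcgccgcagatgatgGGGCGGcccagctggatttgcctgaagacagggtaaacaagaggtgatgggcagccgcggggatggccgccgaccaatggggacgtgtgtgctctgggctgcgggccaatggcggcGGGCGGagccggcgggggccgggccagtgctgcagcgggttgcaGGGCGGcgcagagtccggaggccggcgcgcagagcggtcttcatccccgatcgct
Etv5, proximal start, chr16:22438369-22438618, minus strand: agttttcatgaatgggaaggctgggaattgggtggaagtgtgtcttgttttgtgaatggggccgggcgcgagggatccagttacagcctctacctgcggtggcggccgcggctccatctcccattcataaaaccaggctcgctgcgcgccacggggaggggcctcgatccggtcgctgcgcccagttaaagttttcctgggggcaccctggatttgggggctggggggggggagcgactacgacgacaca
Spry2, chr14:105896820-105897069, minus strand: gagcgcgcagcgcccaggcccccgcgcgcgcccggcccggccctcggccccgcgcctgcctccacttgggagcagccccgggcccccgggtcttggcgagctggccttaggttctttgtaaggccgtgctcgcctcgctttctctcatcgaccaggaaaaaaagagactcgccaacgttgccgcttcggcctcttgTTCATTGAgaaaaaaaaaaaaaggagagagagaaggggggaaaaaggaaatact
Spry1, chr3:37639697-37639946, plus strand: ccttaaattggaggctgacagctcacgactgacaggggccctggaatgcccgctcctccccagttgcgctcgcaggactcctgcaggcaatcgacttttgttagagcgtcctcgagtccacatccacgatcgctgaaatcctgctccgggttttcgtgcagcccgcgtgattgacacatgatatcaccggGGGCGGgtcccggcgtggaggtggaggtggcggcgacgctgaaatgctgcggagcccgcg
The motifs were searched on both strands. They were an ETS site (CCGGAA), an AP-1 site (TGANTCA), a cAMP response element (TGACGTCA), a GC box (GGGCGG) and octamers bound by Capicua. The octamers searched were TGAATGAA, TGAATGGA, TCAATGAA and TCAATGGA. Capicua is a repressor that ERK signalling removes from *Etv4*, *Etv5* and other feedback genes. Octamers that differ from these by 1 base were not searched, such as TGAATGGG, which the proximal *Etv5* window holds unmarked. No match overlapped another in these windows. A Capicua octamer of those searched was found in the *Spry2* window, starting at −54, and in the *Dusp6* window, starting at −24. Of 32851 promoter windows of that length, 3.19% hold such an octamer. The distal *Etv5* window holds 3 GC boxes, the *Spred1* window 2, the *Spry1* and *Spred2* windows 1 each, and 32.7% of all windows hold at least 1. No ETS, AP-1 or cAMP response element motif was found in the 7 windows, against 12%, 6.75% and 1.55% of all windows.

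The question the doses put to these genes was whether their mRNA changed as BRG1 was removed, and from which dose. The quasi-likelihood test of edgeR set each dose against 0 nM over the 11378 genes, and a gene was called at a Benjamini-Hochberg adjusted p under 0.05. At 100 nM 3 members, *Spry4*, *Spry2* and *Etv5*, were higher and 1, *Spry1*, was lower. Across all genes tested 10.1% were called higher and 13.3% lower at that dose. No member passed both the adjusted p and a fold change over 1.5, which 4.37% of all genes did upward and 6.83% downward. The 9 tested members had a median log2 fold change of 0.23 at 100 nM, with 6 of 9 above 0, beside a median of 0 over all genes. The members were picked with earlier results of these data known, so this median describes them and is not a test. When the library sizes were taken over all genes with a count, an alternative chosen after seeing the data, the same 3 and 1 members were called, while the genes called higher made up 26.9% of all calls in place of 43.2%.

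The calls among members began at 1 nM. At 0.3 nM no member was called by edgeR's quasi-likelihood test, by its likelihood ratio test or by the Wald test of DESeq2. At an unadjusted p under 0.05 there were 2 members of 9, *Spry4* and *Etv4*, beside 859 of all 11378 genes. At the adjusted p 0.00% and 0.0703% of all genes were called higher and lower. *Spry4* was called higher at 1 nM, where 0.773% of all genes were called higher and 1.52% lower, and again at 3 nM, where the shares were 4.15% and 5.25%. At 10 nM 4 members were higher, *Spry4*, *Spry2*, *Etv5* and *Etv4*, beside 7.87% of all genes called higher and 10.1% lower. Only the calls of *Spry4* and *Etv5* at 10 nM were also made by the Wald test and the likelihood ratio test.

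**Figure D2:**
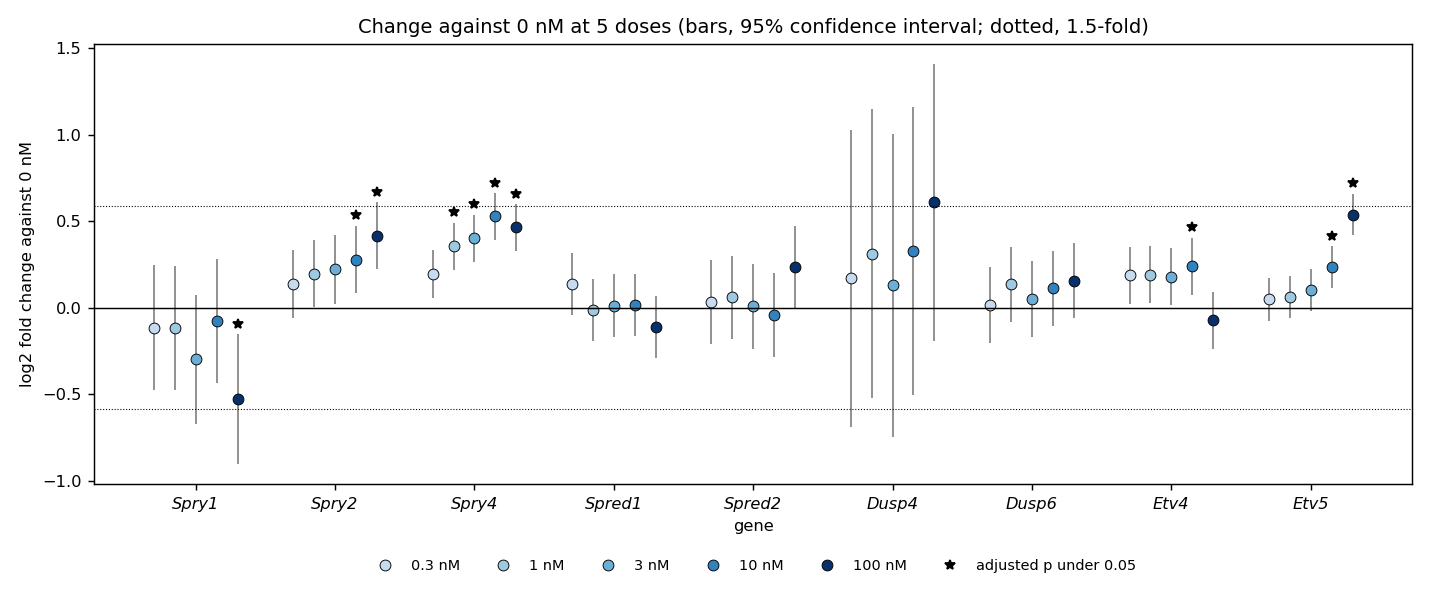
Log2 fold change against 0 nM (y axis) of the 9 tested members (x axis) at 0.3, 1, 3, 10 and 100 nM dTAG13, light to dark, with 95% confidence intervals as bars. Stars mark an adjusted p under 0.05 and dotted lines a 1.5-fold change; all 5 points of *Spry4*, *Spry2*, *Etv5*, *Dusp4* and *Dusp6* are above 0, and those of *Spry1* are all below 0.

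Among the membrane inhibitors, *Spry4*, which encodes a Sprouty protein that blocks RAS activation, was the member called from the lowest dose, 1 nM. It was at 34.6 and 35.7 RPKM in the 0 nM libraries, 39.7 and 40.7 RPKM at 0.3 nM and 47.0 and 43.0 RPKM at 1 nM. At the higher doses it was at 46.9 and 45.9 RPKM (3 nM), 51.4 and 49.9 RPKM (10 nM) and 49.99 and 47.0 RPKM (100 nM). Every treated library was above both 0 nM libraries, and the libraries at 10 and 100 nM overlapped. The log2 fold change against 0 nM was 0.19 ± 0.066 (SE, adjusted p = 0.432) at 0.3 nM, 0.36 ± 0.066 (adjusted p = 0.00283) at 1 nM and 0.40 ± 0.066 (adjusted p = 0.000202) at 3 nM. It was 0.53 ± 0.065 (adjusted p = 1.4e-06) at 10 nM and 0.46 ± 0.065 (adjusted p = 5.8e-06) at 100 nM, a 1.38-fold level with a 95% interval of 1.26 to 1.51. Between 10 and 100 nM the difference was −0.06, with an interval of −0.20 to 0.07, so no further rise was detected over the last step. Within the run of label numbers that holds 0.3 and 3 nM, the log2 difference was 0.21 ± 0.066 (adjusted p = 0.0672). Its call at 1 nM was lost without 0 nM replicate 1 (0.33, adjusted p = 0.0721) and without 1 nM replicate 1 (0.29, adjusted p = 0.107).

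*Spry2*, a Sprouty gene that also restrains receptor tyrosine kinase signalling, was called at 10 and 100 nM. Its libraries read 34.8 and 37.3 RPKM at 0 nM, 42.4 and 36.8 RPKM at 0.3 nM, 38.7 and 43.9 RPKM at 1 nM and 40.0 and 44.0 RPKM at 3 nM. They read 40.9 and 46.6 RPKM at 10 nM and 47.4 and 48.9 RPKM at 100 nM. From 1 nM on all libraries were above those at 0 nM, while 0.3 nM overlapped them, and the 100 nM libraries were above all the others. The log2 fold change was 0.28 ± 0.094 (adjusted p = 0.041) at 10 nM and 0.42 ± 0.093 (adjusted p = 0.00151) at 100 nM, a 1.33-fold level with an interval of 1.17 to 1.53. The call at 10 nM was lost under 9 of 22 alternatives, whereas that at 100 nM held under all 22. At 10 nM the log2 change was 0.28 under the likelihood ratio and Wald tests (adjusted p = 0.0541 and 0.104) and 0.18 without 10 nM replicate 2 (adjusted p = 0.319). It was also lost without either library of 0 or 100 nM.

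*Spry1* was the least abundant of the 3 Sprouty genes and the only member called lower than at 0 nM. The controls held 6.41 and 7.11 RPKM (93 and 109 read pairs) and the 100 nM libraries 5.11 and 4.26 RPKM (77 and 65 read pairs). In between it was at 5.87 and 6.62 RPKM (0.3 nM), 6.41 and 6.08 RPKM (1 nM), 4.88 and 6.06 RPKM (3 nM) and 5.70 and 7.14 RPKM (10 nM). Both 100 nM libraries lay below both at 0 nM, as did those at 3 nM, and the other doses overlapped 0 nM. The log2 fold change at 100 nM was −0.53 ± 0.18 (adjusted p = 0.0363), 0.693 of the control level with an interval of 0.534 to 0.899. This call was narrow. The Wald test of DESeq2 gave an adjusted p of 0.149, and leaving out any 1 of the 4 libraries at 0 and 100 nM gave log2 fold changes of −0.66 to −0.40 with adjusted p values of 0.0532 to 0.25.

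The SPRED proteins bind RAS-GAP neurofibromin and bring it to the membrane. *Spred1* read 11.6 and 13.2 RPKM in the controls against 10.9 and 12.05 RPKM at 100 nM, and its 12 libraries ran from 10.9 to 13.8 RPKM. The log2 difference at 100 nM was −0.11 with a 95% interval of −0.29 to 0.07 (adjusted p = 0.393), and it ran from −0.20 (without 0 nM replicate 1) to −0.02 (without 0 nM replicate 2) with 1 library left out. *Spred2* read 14.8 and 13.8 RPKM in the controls against 17.8 and 15.8 RPKM at 100 nM, which were the 2 highest of its 12 libraries. Its log2 difference of 0.23 had an interval of −0.002 to 0.47 and did not pass (adjusted p = 0.149), and it ran from 0.15 to 0.32 with 1 library left out. Neither *Spred1* nor *Spred2* passed the test at any dose, and the interval of *Spred2* includes the size of the rise in *Spry2*.

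Of the phosphatases, *Dusp6*, whose product is a cytoplasmic phosphatase specific for ERK and whose mRNA is often used as a readout of ERK activity, moved little. Its libraries were at 19.1 and 18.8 RPKM at 0 nM, 20.4 and 20.6 RPKM at 10 nM and 21.7 and 20.6 RPKM at 100 nM. The last 4 were above the 0 nM pair, and at 1 nM the libraries stood apart from each other at 22.7 and 18.9 RPKM. The log2 difference at 100 nM was 0.16 with an interval of −0.06 to 0.37 (adjusted p = 0.304). *Dusp4*, which encodes a nuclear MAP kinase phosphatase, was barely expressed, with 11 to 25 read pairs per library. The controls held 13 and 16 read pairs and the 100 nM libraries 25 and 20, a log2 difference of 0.61 with an interval of −0.19 to 1.41 (adjusted p = 0.282). At this depth a change of the size of those in *Spry4* or *Etv5* was not detectable in *Dusp4*.

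The ETS factor *Etv5* was the member with the smallest adjusted p at 100 nM. Its libraries read 62.8 and 66.0 RPKM at 0 nM, 68.0 and 65.2 RPKM at 0.3 nM, 67.3 and 67.0 RPKM at 1 nM and 67.7 and 70.5 RPKM at 3 nM. They then read 74.4 and 77.1 RPKM at 10 nM and 94.3 and 92.7 RPKM at 100 nM. The libraries at 10 nM were above all at lower doses, and those at 100 nM above those at 10 nM. The log2 fold change against 0 nM was 0.05 to 0.10 at 0.3 to 3 nM (adjusted p = 0.34 to 0.926), 0.23 ± 0.059 (adjusted p = 0.00573) at 10 nM and 0.54 ± 0.058 (adjusted p = 9.7e-08) at 100 nM, a 1.45-fold level with an interval of 1.34 to 1.58. The call at 10 nM was lost without 0 nM replicate 1 (0.19, adjusted p = 0.1), and that at 100 nM held under all 22 alternatives.

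Its paralog *Etv4* had another course. It was at 55.7 and 62.7 RPKM at 0 nM, 67.1 and 67.8 RPKM at 0.3 nM, 71.4 and 63.8 RPKM at 1 nM and 72.0 and 62.4 RPKM at 3 nM. It was at 68.7 and 71.3 RPKM at 10 nM and at 57.6 and 54.9 RPKM at 100 nM. The 100 nM libraries overlapped those at 0 nM and were below every library of the doses in between. The log2 fold change against 0 nM was 0.18 to 0.19 at 0.3, 1 and 3 nM (adjusted p = 0.19 to 0.608), 0.24 ± 0.080 at 10 nM (adjusted p = 0.0375) and −0.07 ± 0.081 at 100 nM (adjusted p = 0.566). The call at 10 nM was lost under 12 of 22 alternatives, among them both other tests and any 1 library of 0.3, 10 or 100 nM or 0 nM replicate 1 left out, with adjusted p values up to 0.369. The log2 change was 0.24 under both other tests and 0.15 without 0 nM replicate 1.

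Over the last step, from 10 to 100 nM, these were the 2 members called, in opposite directions. *Etv5* rose by a log2 difference of 0.30 ± 0.058 (adjusted p = 0.00273) and *Etv4* fell by 0.31 ± 0.080 (adjusted p = 0.0329), in a comparison that called 0.615% of all genes higher and 1.76% lower. Neither gene passed over the step before it, from 3 to 10 nM, where *Etv5* had a log2 difference of 0.13 ± 0.059 (adjusted p = 0.471) and *Etv4* of 0.06 ± 0.080 (adjusted p = 0.891). The *Etv5* call was lost without 100 nM replicate 1 (0.29, adjusted p = 0.0588), the *Etv4* call without any 1 library of 0.3, 10 or 100 nM (adjusted p = 0.0579 to 0.332), and both without normalization factors (adjusted p = 0.095 and 0.183).

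*Egr1*, an immediate early gene that serum and growth factors induce within minutes, was close to undetected in these libraries. It had 3 to 14 read pairs per library and a mean of 0.396 RPKM, below the 1 RPKM needed for the test. The 0 nM libraries held 6 and 8 read pairs and the 100 nM libraries 6 and 9, and all doses overlapped 0 nM. In a fit of all 23204 genes with a count, the log2 difference at 100 nM was 0.08 with an interval of −1.20 to 1.36 (adjusted p = 0.997), so a change by 1 log2 unit in either direction was not detectable at this depth.

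A line over the order of the 6 doses was fitted to each gene as a summary that uses all 12 libraries. *Spry4* rose by 0.096 ± 0.014 log2 units per dose step (adjusted p = 7.1e-06), *Etv5* by 0.096 ± 0.014 (adjusted p = 1.0e-05) and *Spry2* by 0.072 ± 0.016 (adjusted p = 0.000927). The slopes of the first pair were alike, yet the courses were not: *Spry4* had most of its difference by 1 nM and *Etv5* most of it after 10 nM. *Spry1* had a slope of −0.074 ± 0.032 that did not pass (adjusted p = 0.0819), and the other 5 tested members had adjusted p values of 0.23 to 0.872. Over all genes 13.6% had a slope called higher and 15.7% lower. With the run of label numbers as a second term, the slopes of *Spry4*, *Etv5* and *Spry2* were 0.098, 0.092 and 0.073, all still called.

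Because 2 genes of 1 library share its size and scaling, ratios within a family do not depend on the normalization. All 6 ratios within the families were computed, a choice made after seeing the data, and the slope of the log2 ratio over the order of the doses was tested by a two-sided permutation test over the 12 libraries with 100000 draws, adjusted over the 6. The *Spry4* to *Spry1* ratio of RPKM was 5.41 and 5.01 in the controls, 7.32 and 7.08 in the 1 nM libraries, 9.02 and 6.998 in those of 10 nM and 9.78 and 11.03 in those of 100 nM (adjusted permutation p = 0.00054). The *Spry2* to *Spry1* ratio was 5.43 and 5.24 at 0 nM and 9.26 and 11.5 at 100 nM (adjusted permutation p = 0.00303). At 3 nM the *Spry4* to *Spry1* ratio was 9.60 and 7.57, overlapping that at 10 nM. Both ratios were thus close to 5 in the control and close to 10 at the highest dose. At that dose the Sprouty mRNA held less *Spry1* relative to *Spry4* and *Spry2*. The tests of the 2 ratios share the *Spry1* values and use the same libraries as the calls above, so they are not separate support. Within the 8 libraries of 1 run of label numbers both slopes passed an exact permutation test (adjusted p = 0.0119 and 0.0202). The *Spry4* to *Spry2* ratio was 0.957 to 0.995 at 0 nM and 0.962 to 1.06 at 100 nM, and its slope did not pass (adjusted permutation p = 0.343).

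**Figure D3:**
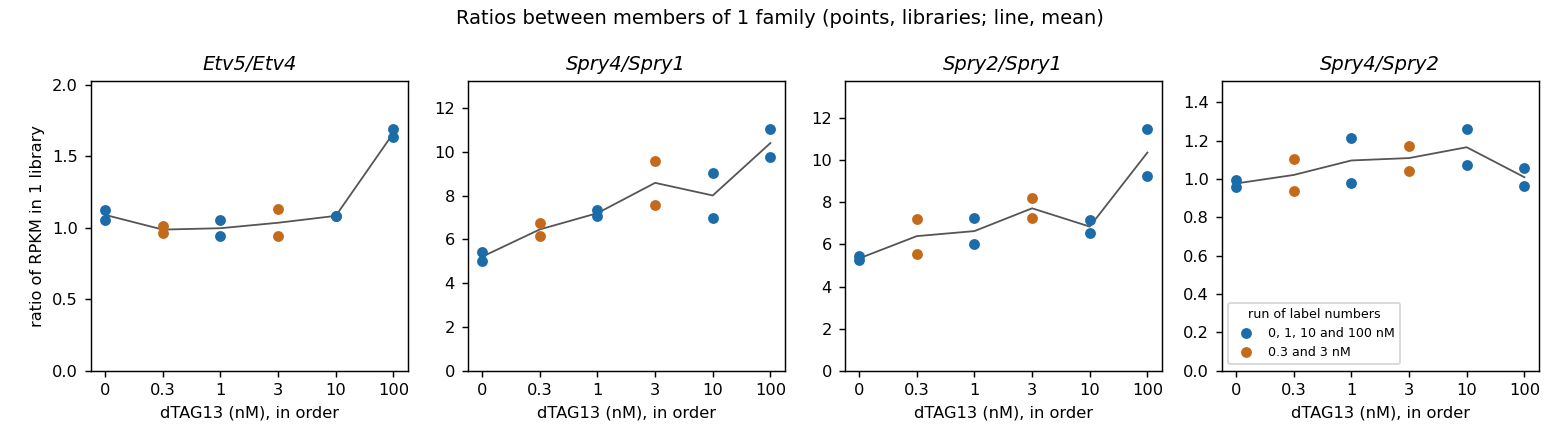
Ratio of RPKM between 2 members of a family in the same library (y axis, from 0) against the dTAG13 dose in nM, in order (x axis); points are libraries coloured by the run of label numbers, and the line joins the means. *Etv5*/*Etv4* lies between 0.939 and 1.13 in the 10 libraries up to 10 nM and at 1.64 and 1.69 at 100 nM, while both ratios to *Spry1* go up from the lowest doses.

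The *Etv5* to *Etv4* ratio stayed between 0.939 and 1.13 in the 10 libraries up to 10 nM and was 1.64 and 1.69 at 100 nM. Its mean was 1.09 ± 0.052 at 0 nM, 1.08 ± 0.0020 at 10 nM and 1.66 ± 0.037 at 100 nM. A straight line passed (adjusted permutation p = 0.0409), not within the 8 libraries of 1 run (adjusted exact p = 0.127), and not when any of 7 single libraries was left out, 100 nM replicate 1 (adjusted permutation p = 0.175) and 100 nM replicate 2 (0.172) among them. The *Spred2* to *Spred1* ratio was 1.16 ± 0.16 at 0 nM and 1.47 ± 0.23 at 100 nM (adjusted permutation p = 0.162), and *Dusp4* to *Dusp6* 0.0525 ± 0.0062 and 0.0720 ± 0.0092 (0.181). The slope of the *Spred2* ratio passed without 0 nM replicate 1 (adjusted permutation p = 0.0413) or without 10 nM replicate 1 (0.0324).

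The rest of the FGF-ERK pathway was read from 4 further lists at 100 nM. At that dose 10.1% of all genes tested were called higher and 13.3% lower. Of 14 other feedback genes 12 were tested, 1 was higher and 4 were lower, with a median log2 fold change of −0.07. *Dusp1*, an immediate early phosphatase of several MAP kinases, fell from 16.4 and 16.9 RPKM to 8.18 and 8.08 RPKM, a log2 change of −1.03 ± 0.16 (adjusted p = 1.5e-05). *Dusp9*, an ERK phosphatase expressed in mES cells, fell by 0.58 ± 0.14 (adjusted p = 0.00328) and *Cbl*, a ubiquitin ligase for receptor tyrosine kinases, by 0.25 ± 0.071 (adjusted p = 0.0093). The other calls were *Spred3*, higher, and *Lrig1*, lower, named here after their values were seen. *Spred3*, a relative of *Spred1* and *Spred2*, went from 1.06 and 1.32 RPKM to 2.16 and 2.14 RPKM (log2 change 0.85 ± 0.28, adjusted p = 0.0286), and *Lrig1* fell by 0.43 ± 0.15 (adjusted p = 0.0348). Over the libraries of a dose *Spred3* had 58 read pairs at 0 nM and 106 at 100 nM. The 2 phosphatase genes called were thus both lower, whereas neither *Dusp4* nor *Dusp6* passed.

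Of 17 genes that respond to ERK or serum 11 were tested, 2 were higher and 3 lower, with a median of 0.09. *Myc*, a growth-promoting transcription factor, rose from 24.3 and 23.9 RPKM to 44.3 and 47.9 RPKM (log2 change 0.94 ± 0.081, adjusted p = 1.7e-09), and *Ier2*, an immediate early gene, rose by 0.54 ± 0.084 (adjusted p = 2.4e-05). *Junb*, a subunit of AP-1, fell by 0.61 ± 0.16 (adjusted p = 0.00672), as did *Nr4a1* and *Etv1*, an ETS factor of the same subfamily as *Etv4* and *Etv5* (both named after their values were seen). The early response genes therefore moved both ways in the same libraries, and 6 of the 17, *Egr2*, *Egr3* and *Egr4* among them, were under 1 RPKM on average, as *Egr1* was. One of the 6, *Ier5*, passed in the fit of all genes and was lower, with 49 read pairs over the 0 nM libraries and 21 over those at 100 nM (adjusted p = 0.0392, named after its values were seen). Out of 23204 genes, that fit called 1572 higher and 1569 lower at 100 nM.

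Among 20 ligands and receptors 9 were tested, 2 were higher and 2 lower, with a median of 0.05. *Fgf4*, the autocrine ligand, fell from 85.1 and 83.3 RPKM to 56.5 and 60.5 RPKM (−0.52 ± 0.066, adjusted p = 1.1e-06), while *Fgf17*, a ligand of the FGF8 subfamily, rose from 10.8 and 12.1 RPKM to 16.8 and 19.5 RPKM (0.66 ± 0.15, adjusted p = 0.00138). *Kit*, the receptor of stem cell factor, fell by 1.84 ± 0.14 (adjusted p = 2.9e-10). The receptor gene *Erbb3*, named after its values were seen, was the other one higher. *Fgfr1*, the main FGF receptor of mES cells and also chosen afterwards, was at 26.1 ± 0.653 RPKM in the controls and 27.8 ± 1.41 RPKM at 100 nM (0.09, interval −0.05 to 0.24, adjusted p = 0.387). Of the 11 genes under the filter, 4 receptor genes passed in the fit of all genes and were higher at 100 nM (named after their values were seen). That fit called 1572 of its 23204 genes higher. Summed over the libraries of a dose, *Pdgfra* went from 9 read pairs to 48 (adjusted p = 0.000413), *Fgfr2* from 13 to 47 (adjusted p = 0.00732), *Fgfr3* from 13 to 39 (adjusted p = 0.0174) and *Met* from 16 to 43 (adjusted p = 0.0264).

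All 21 genes of the cascade from the adaptors to the kinases below ERK were tested, and 2 were higher and 2 lower, with a median of −0.02. *Gab1*, a docking adaptor, fell by 0.34 ± 0.062 (adjusted p = 0.000151) and *Shc1*, an adaptor, by 0.31 ± 0.090 (adjusted p = 0.0139), while *Nras* rose by 0.33 ± 0.085 (adjusted p = 0.00469), as did the kinase gene *Rps6ka3* (named after its values were seen). Changes in all 4 lists were mixed in direction, and each list's median was within 0.1 of the median of all genes.

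**Figure D4:**
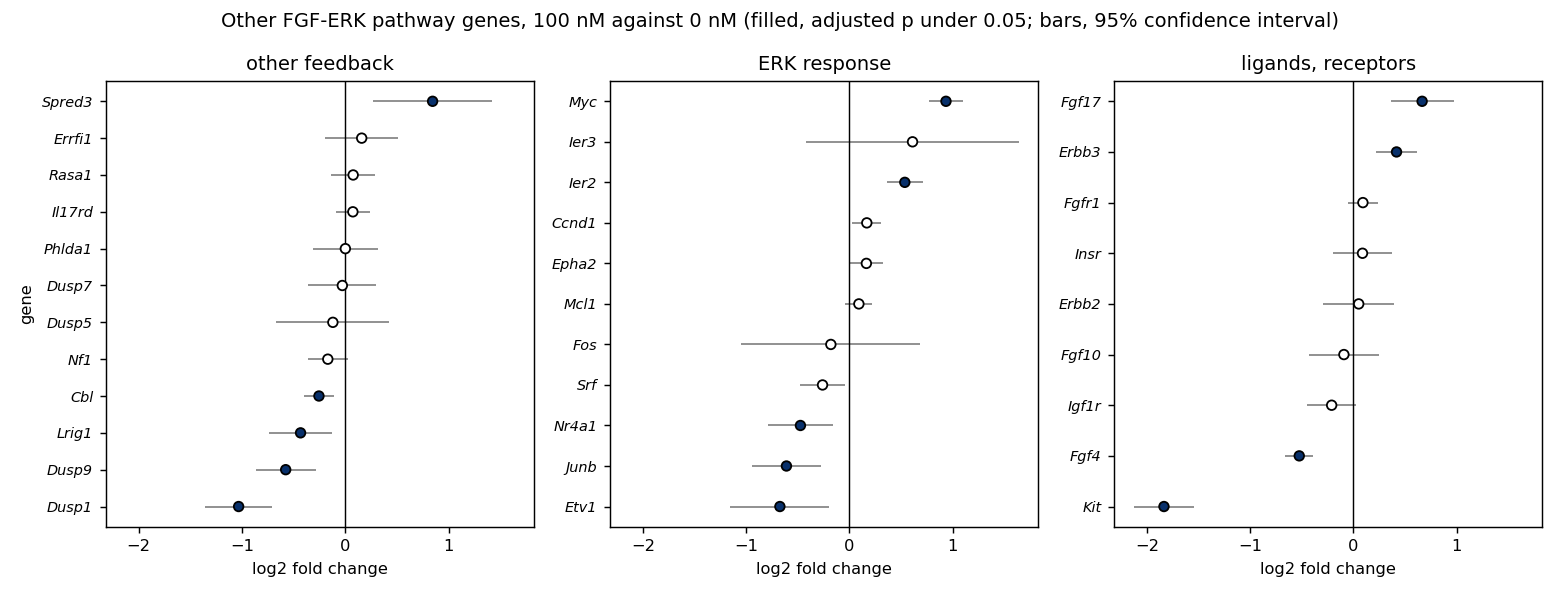
Log2 fold change at 100 nM against 0 nM (x axis) of the tested genes (y axis) of 3 other FGF-ERK lists (other feedback genes, response genes, and ligands and receptors), sorted within each list, with 95% confidence intervals as bars; filled points passed an adjusted p of 0.05. Each list has genes on both sides of 0, from *Kit* at −1.84 to *Myc* at 0.94.

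Markers of other cell types were read beside these results, at the dose where 10.1% of all genes tested were called higher and 13.3% lower. In bulk RNA fewer cells of a type and less RNA per cell cannot be told apart. Of 7 primitive endoderm markers none reached 1 RPKM on average, and they summed to 1.84 to 2.29 RPKM at 0 nM and 2.53 to 2.87 RPKM at 100 nM. One of them, *Pdgfra*, was the gene with 9 and 48 read pairs given among the receptors, and none of the other 6 passed in the fit of all genes. None of 6 fibroblast markers did either, summing to 1.64 to 2.15 RPKM and 1.38 to 2.67 RPKM. Of 5 formative or primed epiblast markers 3 were tested, and 2 of them, *Dnmt3b* and *Lef1*, were higher, with sums of 43.3 to 45.3 RPKM at 0 nM and 59.9 to 61.7 RPKM at 100 nM. *Fgf5* and *Otx2* stayed at or below 7 read pairs in every library. Of 7 trophectoderm markers 6 were tested, with *Cdx2*, *Eomes* and *Tfap2c* higher and *Krt8* lower. The log2 changes were 3.10 ± 0.41 for *Cdx2* (adjusted p = 2.4e-06), 0.33 ± 0.12 for *Eomes* (0.0465) and 0.69 ± 0.20 for *Tfap2c* (0.0109). That of *Krt8* was −2.02 ± 0.25 (adjusted p = 7.2e-07). The sums over the 7 markers, 28.4 to 29.7 RPKM at 0 nM and 27.8 to 30.6 RPKM at 100 nM, overlapped and do not show these opposite changes. Of the naive markers *Nanog* and *Klf4* were higher and *Tfcp2l1*, *Esrrb* and *Pou5f1* lower. The log2 changes were 0.52 ± 0.051 for *Nanog* (adjusted p = 1.8e-08) and 0.28 ± 0.063 for *Klf4* (0.00163). They were −0.64 ± 0.048 for *Tfcp2l1* (adjusted p = 1.4e-10), −0.17 ± 0.059 for *Esrrb* (0.0433) and −0.17 ± 0.058 for *Pou5f1* (0.0301). The part of these shifts in the differences of *Spry4*, *Spry2*, *Etv5* and *Spry1* was not tested.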

How the data were processed

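The authors sequenced paired-end RNA-seq libraries (SMART-Seq Stranded Kit, total RNA) of Brg1-dTAG mES cells, trimmed reads with Trim Galore, aligned them to mm10 with HISAT2 and counted read pairs on exons with featureCounts 2.0.1, without strand and leaving out multi-mapped pairs. The deposited values are raw counts per gene symbol, with no normalization, and gene lengths in bases. Doses were taken from the sample labels.

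From these counts, RPKM was computed with edgeR 4.0.16 (R 4.3.3), and the test was confined to genes averaging 1 RPKM or more across the 12 libraries (11378 of 23204 with a count). TMM factors over these genes ran from 0.947 to 1.06. The 6 doses were fitted together with quasi-likelihood tests of each dose against 0 nM, of neighbouring doses and of 3 against 0.3 nM, and a second fit held a line over dose order. P values were adjusted by Benjamini-Hochberg over all genes tested. *Egr1* and other genes under the filter were tested in a fit without it. The likelihood ratio test named in the study's methods was an alternative, as were DESeq2 1.42.0, other scalings, the replicate number as a block and each library left out. The steps were tested on simulated data. Intervals cover the spread between libraries and counting error only, and PCR reads without molecular identifiers are not independent molecules.

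The members and gene lists were chosen with earlier results of these data known. The genes named are all 10 members and, from each of the 4 other pathway lists, the 3 tested genes with the smallest adjusted p at 100 nM, besides those said to be chosen afterwards. A rule for genes with courses like those of members past 1.5-fold named none. Values of some genes of the cascade list are not reported here.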

Additional observations from a re-analysis of the deposited data

How the results depend on the processing

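Of 951 values recomputed under the alternatives, 861 stayed on their side of the threshold with the same sign or within 1.5 times the count. These include counts of 0 members and genes not called at the main setting, so the total does not measure how stable the calls were. The count of all genes lower at 100 nM, 1511, ran from 1019 to 2174 and stayed within 1.5 times throughout. At 100 nM 3 members were higher under all 22 alternatives and at 3 nM 1 was under all 21. The count at 1 nM went from 1 to 0 without normalization factors and ran from 0 to 1 with a library left out. At 10 nM it went from 4 to 2 under the likelihood ratio test, DESeq2, TMM over all genes (chosen after seeing the data) and a pairwise fit, and from 1 (without 0 nM replicate 1) to 4 with a library left out. The 1 member lower at 100 nM became 0 under DESeq2 and without normalization factors, and 0 to 1 with a library left out. Along the doses 1 member, *Spry1*, was lower under TMM over all genes, and 0 to 1 with a library left out. From 10 to 100 nM the counts of 1 higher and 1 lower became 0 and 0 without normalization factors, and each ran from 0 to 1 with a library left out. Over all genes 745 were higher at 100 nM under DESeq2 in place of 1151, and 720 to 1234 with a library left out. *Etv4* at 100 nM ran from −0.16 to 0.012 with a library left out, and its slope of −0.005 from −0.026 to 0.015, or 0.0075 without normalization factors and 0.00020 with the run of label numbers as a term. *Egr1* ran from −0.23 to 0.33. TMM over all genes moved the median of all genes at 100 nM by −0.08. Where a call was lost, the cause was not tested. A fit with a library left out also has fewer libraries, which was not separated from the weight of that library.

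Same replicate numbers did not mark shared deviations: the correlation of replicate differences over the 15 pairs of doses ran from −0.095 to 0.093. With the replicate block the calls at 100 nM numbered 1120 higher and 1485 lower genes, and no call of a member changed. Depth limits *Dusp4* (11 to 25 read pairs per library) and *Egr1* (3 to 14).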
